A study of Mus musculus with 9 samples.

Results

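The genes described here are 34 transcripts that mark lymphocytes, read in macrophages sorted from the inflamed mouse colon: 13 of B and plasma cells, 16 of T cells and 5 of natural killer (NK) cells. A gene was measured where a probe set, the group of probes that reports 1 transcript, carried its symbol alone, and the brightest such probe set by the mean of all arrays stood for the gene. By this rule 32 of the 34 genes were measured, out of 22180 genes on the array with a probe set of their own. Cd247 and Tcf7 had none and were not analysed here, which left 13 B and plasma cell, 14 T cell and 5 NK cell genes. Gata3 was the one gene with 2 probe sets of its own.

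The arrays came from female C57BL/6 mice that all carried LysMCre, a Cre recombinase expressed from the lysozyme M locus in neutrophils and macrophages. The 5 control mice, called LysMCre, had intact Arnt alleles, and the 4 LysMCre;Arntfl/fl mice had floxed alleles of Arnt, which encodes the partner subunit shared by HIF-1α and HIF-2α. Mice of both genotypes were housed together, drank 3% dextran sodium sulfate (DSS) for 5 days and regular water for 3 days, and lamina propria cells positive for CD45, CD11b and F4/80 were sorted on Day 8. Each mouse gave 1 Affymetrix Mouse Gene array from 1.5 ng of total RNA, without pooling. The sort named no lymphocyte marker for exclusion, deletion by LysMCre is not complete in every myeloid cell, and the lymphocytes of these mice are not a target of this Cre. The question was whether the lymphocyte transcripts in the sorted cells differed with genotype, and how they varied between mice.

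B cells recognise antigen through a surface immunoglobulin that signals through the CD79 chains, and their plasma cell progeny secrete antibody, in the gut mostly of the IgA class. T cells signal through the CD3 chains of the T cell receptor, and NK cells kill targets with granule proteins without such a receptor. B cells, plasma cells and T cells are plentiful in the lamina propria, next to the macrophages.

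Promoter sequences are shown for members of each class, to set letters shared within a class beside the values of its genes. RefSeq promoter windows of 300 bases (250 before and 50 after the annotated start, mouse assembly GRCm38.p6) were on hand for 23 of the 32 measured genes, and 6 short motifs were searched in them on both strands. The core AGGAAGT, the kind of site that ETS factors bind in lymphoid promoters, stood in 9.35% of all 32851 windows and in 4 of the 9 T cell genes with a window (Cd3d, Cd3e, Cd5 and Il7r) and 1 of 9 B and plasma cell genes (Cd79a). A longer form of it, ACAGGAAGT, which contains the shorter one, stood in 1.03% of all windows and in Cd3e, Il7r and Cd79a. The windows of 2 CD3 chain genes and of Cd79a follow, 5′ to 3′ on the strand of the gene, with the ETS core or its reverse complement in capitals. They lie at chr9:44981536-44981835 on the plus strand (Cd3d), chr9:45009562-45009861 on the minus strand (Cd3e) and chr7:24897247-24897546 on the plus strand (Cd79a).
Cd3d: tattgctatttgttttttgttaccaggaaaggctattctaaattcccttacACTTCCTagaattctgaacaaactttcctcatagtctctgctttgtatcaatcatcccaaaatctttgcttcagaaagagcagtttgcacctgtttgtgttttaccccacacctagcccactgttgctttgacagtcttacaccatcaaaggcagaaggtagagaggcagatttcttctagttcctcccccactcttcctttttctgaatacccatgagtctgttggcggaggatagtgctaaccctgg
Cd3e: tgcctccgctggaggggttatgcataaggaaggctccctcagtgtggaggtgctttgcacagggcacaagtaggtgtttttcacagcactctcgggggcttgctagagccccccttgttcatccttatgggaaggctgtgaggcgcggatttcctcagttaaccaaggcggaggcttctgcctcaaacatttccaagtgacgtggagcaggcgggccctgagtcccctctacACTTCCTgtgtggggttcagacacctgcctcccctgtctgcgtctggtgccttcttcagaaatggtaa
Cd79a: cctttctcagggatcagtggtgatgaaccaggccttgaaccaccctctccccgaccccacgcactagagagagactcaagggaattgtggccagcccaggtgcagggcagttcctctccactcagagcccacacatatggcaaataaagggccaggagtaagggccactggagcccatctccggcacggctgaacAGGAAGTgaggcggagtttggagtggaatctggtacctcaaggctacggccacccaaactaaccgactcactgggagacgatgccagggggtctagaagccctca
The core TGTGGT, bound by RUNX factors, stood in 16.8% of all windows and in all 5 NK cell genes, against 2 of 9 T cell genes (Il7r and Trat1) and 2 of 9 B and plasma cell genes (Tnfrsf13c and Tnfrsf17). The stretches around a RUNX core in the NK cell genes follow in the same form, with 30 bases on each side. They lie on the minus strand at chr13:113100996-113101061 (Gzma), chr14:56262333-56262398 (Gzmb) and chr6:128788695-128788760 (Klrb1c), and on the plus strand at chr7:4337644-4337709 (Ncr1) and chr7:43437025-43437090 (Nkg7).
Gzma: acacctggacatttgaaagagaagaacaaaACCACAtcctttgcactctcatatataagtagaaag
Gzmb: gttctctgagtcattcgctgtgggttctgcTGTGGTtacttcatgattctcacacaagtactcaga
Klrb1c: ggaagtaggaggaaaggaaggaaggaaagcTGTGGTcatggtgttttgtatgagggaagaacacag
Ncr1: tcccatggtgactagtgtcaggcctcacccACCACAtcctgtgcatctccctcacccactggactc
Nkg7: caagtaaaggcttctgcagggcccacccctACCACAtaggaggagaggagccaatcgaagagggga
The octamer ATGCAAAT, the element of immunoglobulin promoters at which the product of Pou2af1 acts as a coactivator, stood in 1.74% of all windows and in 0 of the 23. The core CTTTGA of TCF factors stood in 16% of all windows and in 4 of the 23 (Bcl11b, Cd3d, Fcmr and Trat1), and the palindromic core of EBF factors in 0.904% and in Cd22. These matches describe letters in a window and not binding.

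The values are log2 values that the authors obtained with RMA. Differences are given as LysMCre;Arntfl/fl minus LysMCre on that scale, called log2 difference below, and a gene was called at an adjusted p below 0.05 with a fold change above 1.5. Over all 34365 probe sets, limma called 49 higher and 52 lower. Arnt itself was 9.39 ± 0.10 (SD, n = 5) in controls and 8.73 ± 0.10 (SD, n = 4) in LysMCre;Arntfl/fl arrays (log2 difference -0.66, adjusted p = 0.0214 from limma), with no overlap between genotypes. Whether its probes lie in the deleted exon is not given in the sources used. The call of Arnt was lost in 5 of the 9 fits that left out 1 array (LysMCre replicates 3 and 5 and LysMCre;Arntfl/fl replicates 2, 3 and 4), where the adjusted p reached 0.0883. Of the genes of the sort markers, Itgam (CD11b) read 11.79 ± 0.22 (SD, n = 5) in controls and 12.23 ± 0.13 (SD, n = 4) in LysMCre;Arntfl/fl arrays, without overlap (log2 difference 0.44, unadjusted p = 0.00408, adjusted p = 0.160 from limma). Ptprc (CD45) and Adgre1 (F4/80) overlapped, with log2 differences of -0.01 and -0.15. Log2 RMA values have no zero and carry no call of presence, so a level alone does not say whether a lymphocyte transcript was present.

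None of the 32 lymphocyte genes passed the test between the genotypes over all probe sets. Limma called 0 of the 32 higher, against 0.143% of all probe sets, and 0 lower, against 0.151%, and the smallest adjusted p was 0.260, of Tnfrsf17. At an unadjusted p below 0.05 there were 4 members (Tnfrsf17, Cd22, Cd4 and Gata3), against 11.5% of all probe sets, a share near this background. The arrays of the genotypes overlapped for all 32 members. Of all probe sets 4.73% showed no overlap, so that 0 of 32 is also near the background. The log2 difference was above 0 for 13 members and below 0 for 19, with a median of -0.09 beside 0.01 over all probe sets. For 27 of the 32 genes the whole 95% confidence interval lay within a 2-fold change in either direction, so that larger differences were outside the interval for them, and for Tnfrsf17, Mzb1, Cr2, Cd22 and Cd4 it reached beyond a 2-fold decrease. In sorted bulk cells, fewer cells of a type and less RNA per cell cannot be told apart.

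**Figure D1:**
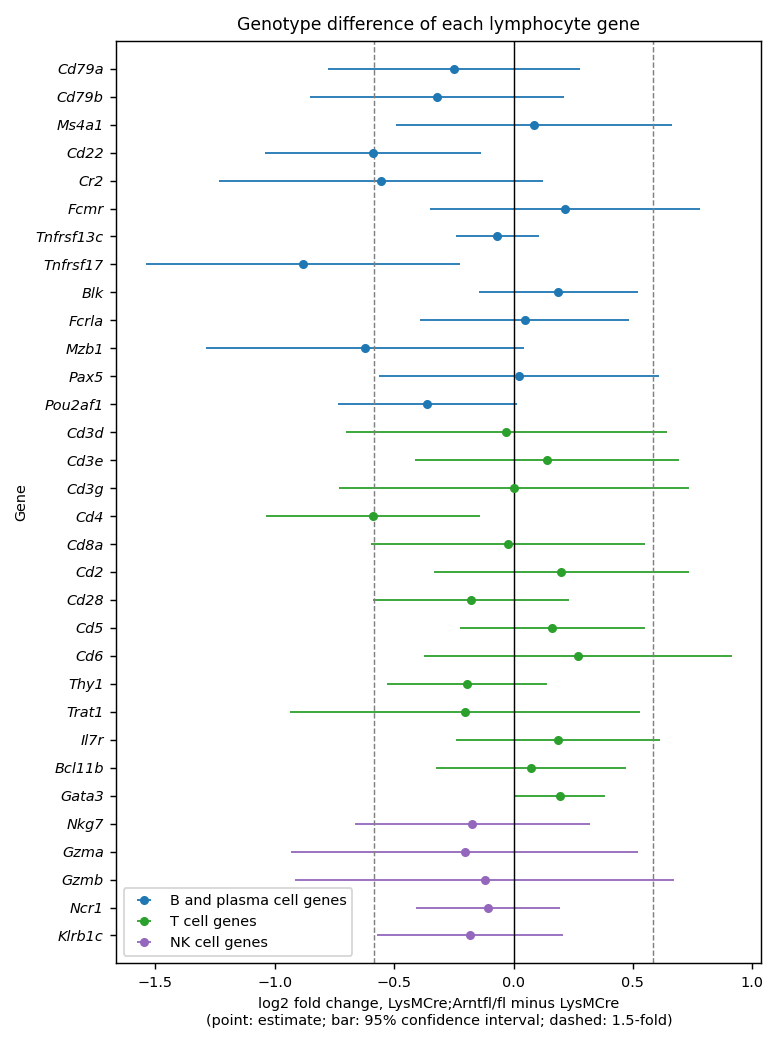
Log2 fold change (x axis) of the 32 measured lymphocyte genes (y axis), LysMCre;Arntfl/fl minus LysMCre, with 95% confidence intervals from limma and dashed lines at a 1.5-fold change. Points of the T cell genes lie on both sides of 0, those of all 5 NK cell genes lie below it, and the lowest is Tnfrsf17 at -0.88.

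Among the B and plasma cell genes 5 lay above 0 and 8 below, with a median of -0.25. The lowest value belonged to Tnfrsf17, which encodes BCMA, a survival receptor of plasma cells. Its log2 values were 6.70, 7.83, 8.31, 7.26 and 7.70 in LysMCre replicates 1 to 5 and 6.95, 6.23, 7.13 and 6.40 in LysMCre;Arntfl/fl replicates 1 to 4. Of the control arrays 4 lay above all LysMCre;Arntfl/fl arrays, and LysMCre replicate 1 lay among them. The log2 difference was -0.88 (standard error 0.30, unadjusted p = 0.0135, adjusted p = 0.260 from limma), a 1.84-fold lower mean that did not pass the test.

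Mzb1, which encodes an endoplasmic reticulum protein that helps plasma cells secrete immunoglobulin, was also highest on LysMCre replicate 3 and lowest on LysMCre;Arntfl/fl replicate 2. It read 8.89, 9.95, 10.41, 9.67 and 10.03 in LysMCre and 9.63, 8.65, 9.57 and 8.82 in LysMCre;Arntfl/fl. LysMCre replicate 1 was again as low as the lower LysMCre;Arntfl/fl arrays, and the log2 difference was -0.62 (standard error 0.30, adjusted p = 0.474). Pou2af1, the B cell coactivator of octamer factors, read 8.36, 8.91, 9.04, 8.46 and 8.63 in LysMCre and 8.44, 8.14, 8.67 and 8.03 in LysMCre;Arntfl/fl. LysMCre;Arntfl/fl replicates 1 and 3 lay within the range of the controls and replicates 2 and 4 below it, and the log2 difference was -0.36 (adjusted p = 0.457).

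The chains that signal for the B cell antigen receptor had similar profiles over the arrays. Cd79a read 8.14, 8.55, 9.10, 8.47 and 9.03 in LysMCre and 9.04, 8.34, 8.31 and 7.94 in LysMCre;Arntfl/fl (log2 difference -0.25, adjusted p = 0.778). Cd79b read 8.61, 8.94, 9.46, 8.94 and 9.41 in LysMCre and 9.17, 8.84, 8.98 and 8.02 in LysMCre;Arntfl/fl (log2 difference -0.32, adjusted p = 0.691). Both were highest on LysMCre replicate 3 and lowest on LysMCre;Arntfl/fl replicate 4, and LysMCre replicate 1 was the lowest of the controls for both. Without LysMCre;Arntfl/fl replicate 4 the log2 difference was -0.09 for Cd79a and -0.08 for Cd79b.

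Of the B cell surface receptors, Cd22 had an unadjusted p below 0.05. This inhibitory receptor for sialic acid read 8.79, 8.94, 8.92, 8.68 and 9.38 in LysMCre and 8.60, 7.71, 8.72 and 8.39 in LysMCre;Arntfl/fl. All controls but replicate 4 lay above every LysMCre;Arntfl/fl array, and LysMCre;Arntfl/fl replicate 2 lay far below the rest (log2 difference -0.59, standard error 0.20, unadjusted p = 0.0155, adjusted p = 0.276). Without that array the log2 difference of Cd22 was -0.37. Cr2, the complement receptor CD21, also had a lower mean, with values between 6.05 and 7.65 in LysMCre and between 5.71 and 6.84 in LysMCre;Arntfl/fl (log2 difference -0.56, adjusted p = 0.549). It was -0.36 when LysMCre replicate 5 was left out and -0.35 when LysMCre;Arntfl/fl replicate 2 was.

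The remaining genes of mature B cells had differences close to 0. Ms4a1, which encodes CD20, read 6.98, 6.19, 7.10, 6.63 and 7.73 in LysMCre and 6.91, 7.09, 7.36 and 6.68 in LysMCre;Arntfl/fl (log2 difference 0.09). The LysMCre arrays held both the highest value, on replicate 5, and the lowest, on replicate 2. The log2 difference was 0.02 for Pax5, the factor that keeps B cell identity and is shut off in plasma cells, 0.21 for the IgM receptor gene Fcmr, 0.19 for the kinase gene Blk and 0.05 for Fcrla, which encodes an intracellular Fc receptor-like protein. Tnfrsf13c, the receptor for the survival factor BAFF, read 7.53 ± 0.09 (SD, n = 5) and 7.47 ± 0.06 (SD, n = 4). It was the flattest member, with a range over the 9 arrays of 0.25 on the log2 scale, wider than that of 3.56% of all probe sets.

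**Figure D2:**
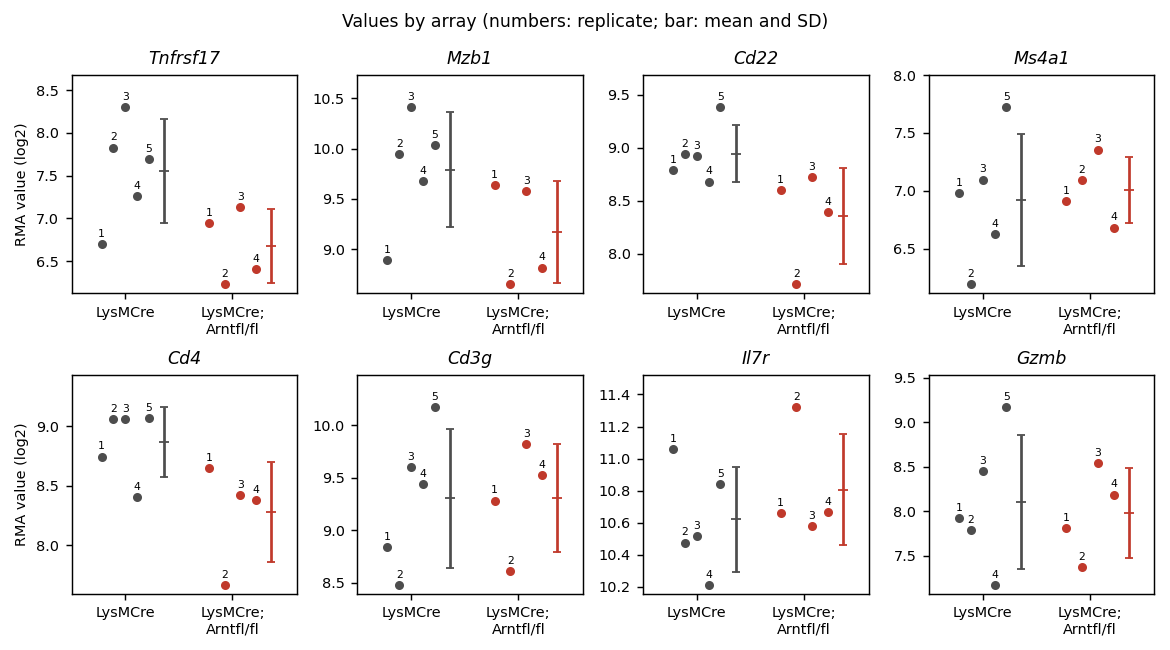
Log2 RMA values (y axis) of 8 lymphocyte genes on each array, by genotype (x axis), with the replicate number above each point and the mean and SD beside the points. Tnfrsf17, Mzb1, Cd22 and Cd4 have lower means in LysMCre;Arntfl/fl but overlap, while Ms4a1, Cd3g and Gzmb span both genotypes with LysMCre replicate 5 on top, and Il7r peaks on LysMCre;Arntfl/fl replicate 2.

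Among the T cell genes 8 lay above 0 and 6 below, with a median of 0.04. The CD3 chains, which carry the signal of the T cell receptor, had nearly the same mean in both genotypes and differed widely between mice. Cd3g read 8.84, 8.48, 9.60, 9.44 and 10.17 in LysMCre and 9.28, 8.62, 9.82 and 9.52 in LysMCre;Arntfl/fl. Its lowest and highest arrays were LysMCre replicates 2 and 5, which differed 3.23-fold, and its log2 difference between genotypes was 0.00 (95% confidence interval -0.73 to 0.74). Cd3d read 7.16, 7.07, 8.01, 8.00 and 8.56 in LysMCre and 7.60, 7.25, 8.24 and 7.82 in LysMCre;Arntfl/fl, with a log2 difference of -0.03. Cd3e read 7.77, 7.33, 8.10, 7.81 and 8.48 in LysMCre and 8.46, 7.39, 8.33 and 7.98 in LysMCre;Arntfl/fl, with a log2 difference of 0.14. As for Cd3g, the top and bottom arrays of both were LysMCre replicates 5 and 2.

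The coreceptor genes shared their highest array, LysMCre replicate 5, and their lowest, LysMCre;Arntfl/fl replicate 2. Their deviations from the genotype means correlated at 0.445. Cd4, which marks helper T cells and is known in some resident macrophages of the mouse gut as well, read 8.75, 9.06, 9.06, 8.40 and 9.07 in LysMCre and 8.65, 7.67, 8.42 and 8.38 in LysMCre;Arntfl/fl. Only LysMCre replicate 4 lay within the range of the other genotype, and the log2 difference was -0.59 (standard error 0.20, unadjusted p = 0.0149, adjusted p = 0.271 from limma). Without LysMCre;Arntfl/fl replicate 2, its lowest array, it was -0.38. Cd8a, the coreceptor chain of cytotoxic T cells, read between 5.39 and 6.58 in LysMCre and between 5.17 and 6.07 in LysMCre;Arntfl/fl, with a log2 difference of -0.02. Its means of 5.75 and 5.73 lay below the array medians of 5.98 to 6.04.

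Adhesion and costimulation genes lay on both sides of 0. Cd6 and Cd5, which encode related scavenger-type receptors that tune T cell receptor signals, had log2 differences of 0.27 and 0.16, and the adhesion receptor gene Cd2 had 0.20. Cd6 read 7.61, 7.67, 7.99, 7.66 and 8.46 in LysMCre and 8.47, 7.11, 8.56 and 8.45 in LysMCre;Arntfl/fl. LysMCre;Arntfl/fl replicates 1, 3 and 4 lay close together near the top of all arrays, and replicate 2 was the lowest of all. Without replicate 2 the log2 difference of Cd6 was 0.61, with a smallest adjusted p of 0.269 over the fits without 1 array. The costimulatory receptor gene Cd28, the surface glycoprotein gene Thy1, which stromal cells also express, and Trat1, an adaptor of the T cell receptor, had log2 differences of -0.18, -0.20 and -0.20. That of Trat1 was 0.02 without LysMCre replicate 5.

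Il7r, the receptor chain for the lymphocyte survival cytokine IL-7 that innate lymphoid cells also carry, ran against the other T cell genes. It read 11.06, 10.48, 10.52, 10.21 and 10.84 in LysMCre and 10.66, 11.32, 10.58 and 10.66 in LysMCre;Arntfl/fl. Its highest value was on LysMCre;Arntfl/fl replicate 2, the array on which Cd4, Cd5, Cd6, Cd8a and Thy1 were lowest, and its log2 difference was 0.19 (adjusted p = 0.795).

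Of the T cell transcription factors, Gata3, which directs type 2 helper T cells and type 2 innate lymphoid cells, had an unadjusted p below 0.05. It read 6.20, 6.24, 6.30, 6.14 and 6.27 in LysMCre and 6.50, 6.23, 6.49 and 6.49 in LysMCre;Arntfl/fl. All LysMCre;Arntfl/fl arrays except replicate 2 lay above the controls, in a range of only 0.36 on the log2 scale (log2 difference 0.20, standard error 0.09, unadjusted p = 0.0426, adjusted p = 0.411). With the mean of its 2 probe sets in place of the brighter one, the log2 difference of Gata3 was 0.04 (adjusted p = 0.902). Bcl11b, the factor of T cell commitment, had a log2 difference of 0.07.

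All 5 NK cell genes had a negative log2 difference between -0.21 and -0.11, and the unadjusted p of none was below 0.326. Gzmb, a granule protease of cytotoxic cells, read 7.92, 7.79, 8.45, 7.18 and 9.17 in LysMCre and 7.81, 7.38, 8.54 and 8.19 in LysMCre;Arntfl/fl. The 2 extreme arrays were both controls, replicates 4 and 5, 3.98-fold apart, and the log2 difference was -0.12 (95% confidence interval -0.92 to 0.67). Gzma, the companion protease, read 6.82, 7.33, 7.98, 7.30 and 8.25 in LysMCre and 7.54, 6.48, 7.96 and 7.34 in LysMCre;Arntfl/fl, with a log2 difference of -0.21. Nkg7, a membrane protein of cytotoxic granules, had -0.17, and the receptor genes Klrb1c (NK1.1) and Ncr1 (NKp46) had -0.18 and -0.11. When LysMCre replicate 5 was left out, the log2 difference was 0.01 for Nkg7 and 0.15 for Gzmb, and when LysMCre;Arntfl/fl replicate 2 was, it was 0.08 for Gzmb and 0.08 for Gzma, so these 3 signs rested on single arrays. Those of Ncr1 and Klrb1c stayed negative without any 1 array. Both genes were dim: Ncr1 averaged 5.20 in LysMCre and 5.09 in LysMCre;Arntfl/fl, and Klrb1c 5.90 and 5.72. These means lie below the array medians of 5.98 to 6.04, and whether either transcript was detected is not known.

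The differences between mice were large for these genes, over both genotypes and within them. The range over the 9 arrays had a median of 1.31 on the log2 scale for the 32 members beside 0.556 over all probe sets, and 20 of the 32 lay in the top 10% of ranges. The widest ranges were those of Tnfrsf17, Gzmb and Cr2, with 4.23-fold, 3.98-fold and 3.83-fold between the lowest and the highest array. Those arrays were both controls for Gzmb but of different genotypes for Tnfrsf17 and Cr2, whose ranges thus include the genotype difference. The residual SD within genotypes had a median of 0.427 for the members and 0.173 for all probe sets. Genotype accounted for a median of 8.07% of the variance of a member and 9.81% of that of a probe set.

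**Figure D3:**
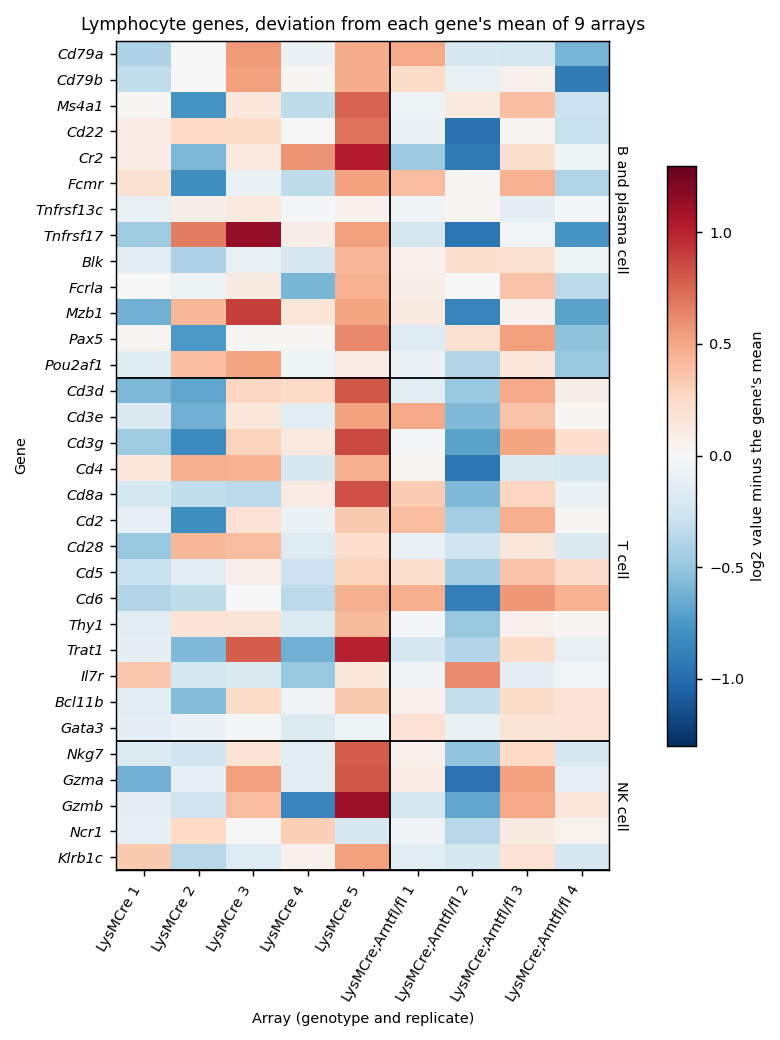
Deviation of each array (x axis) from the gene's mean of 9 arrays, in log2 units (colour, red above and blue below), for the 32 lymphocyte genes (y axis) in B and plasma cell, T cell and NK cell blocks. LysMCre replicate 5 is red for most genes, LysMCre replicate 3 is darkest for Tnfrsf17 and Mzb1, and LysMCre;Arntfl/fl replicate 2 is blue for most T and NK cell genes but red for Il7r.

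The same arrays were high or low for many of these genes. LysMCre replicate 5 was the highest array for 19 of the 32 members (7 B and plasma, 8 T and 4 NK cell genes) and for 9.47% of all probe sets. LysMCre replicate 3 was the highest for 6, all of them B and plasma cell genes. The lowest array was LysMCre;Arntfl/fl replicate 2 for 12 members, against 14.2% of all probe sets, and LysMCre replicate 2 for 10. The mean log2 value of the 13 B and plasma cell genes was 7.78, 7.79, 8.24, 7.85 and 8.43 in LysMCre and 7.93, 7.62, 8.07 and 7.50 in LysMCre;Arntfl/fl. That of the 14 T cell genes was 7.64, 7.54, 8.01, 7.68 and 8.31 in LysMCre and 7.95, 7.41, 8.09 and 7.89 in LysMCre;Arntfl/fl. That of the 5 NK cell genes was 6.76, 6.76, 7.09, 6.74 and 7.51 in LysMCre and 6.85, 6.36, 7.22 and 6.84 in LysMCre;Arntfl/fl. In all 3 classes LysMCre replicate 5 stood highest and the genotypes overlapped.

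Many T cell genes rose and fell together across mice, while the pairs of B and plasma cell and of NK cell genes were more mixed. After the genotype means were removed, the median Pearson correlation over the 9 arrays was 0.651 between pairs of T cell genes, 0.456 between pairs of B and plasma cell genes and 0.420 between pairs of NK cell genes, beside 0.003 between pairs of all genes with 1 symbol. T and NK cell genes correlated with each other at a median of 0.644, and B and plasma cell genes with T cell genes at 0.447 and with NK cell genes at 0.478. The points of a pair share their arrays, amplification and normalization, so these values are a description of 9 mice. The correlation among the T cell genes was 0.560 when LysMCre replicate 5 was left out, 0.597 when LysMCre;Arntfl/fl replicate 2 was, and 0.343 without both, and that of T with NK cell genes was 0.353 without both. Among the NK cell genes, of which 3 of 10 pairs were above 0.7 and 7 above 0, it fell from 0.420 to 0.108 without both, and among the B and plasma cell genes it was 0.421 without both. These 2 mice were chosen after the values were seen, as the extremes of the T cell mean.

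The closest pairs lay both within and across the classes. The chains Cd3d and Cd3g correlated at 0.977, the related receptors Cd5 and Cd6 at 0.976, Tnfrsf17 and Mzb1 at 0.969, Cd3e and Cd2 at 0.963, Ms4a1 and Blk at 0.950, and Cd79a and Cd79b at 0.901. Il7r, Ncr1 and Tnfrsf13c correlated above 0.7 with 0 of the other members, and Il7r and the dim Ncr1 opposed each other at -0.901. Across classes, Cd28 went with the plasma cell genes (0.927 with Tnfrsf17) more than with any T cell gene, Cr2 with Cd3g (0.930), and Cd22 with Cd5 (0.955).

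**Figure D4:**
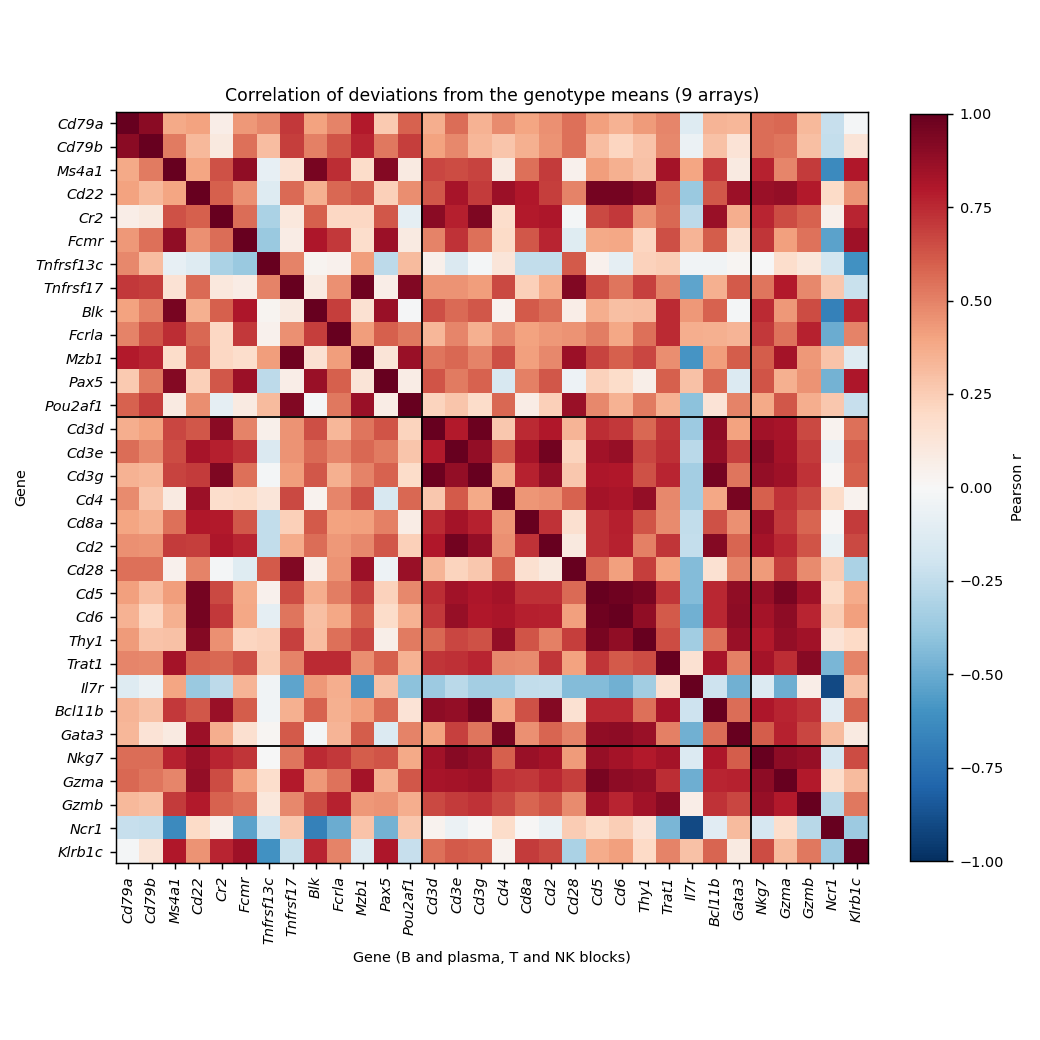
Pearson correlation (colour) between the 32 lymphocyte genes (both axes) of their deviations from the genotype means over 9 arrays, in B and plasma cell, T cell and NK cell blocks. The T and NK blocks are mostly red, with a median of 0.651 within the T cell genes, while Il7r and Ncr1 stand out as pale or blue lines.

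The B and plasma cell genes fell into sets by the array on which they were highest, a grouping made after the values were seen. The 6 genes highest on LysMCre replicate 3 were Cd79a, Cd79b, Mzb1, Pou2af1, Tnfrsf13c and Tnfrsf17, and all 6 had a negative log2 difference (median -0.34). The 7 highest on LysMCre replicate 5 were Blk, Cd22, Cr2, Fcmr, Fcrla, Ms4a1 and Pax5, of which 5 were positive and 2 negative (median 0.05). The set on replicate 3 holds the plasma cell genes Tnfrsf17 and Mzb1, but also the antigen receptor chains and the BAFF receptor gene of B cells. In the set on replicate 5, Cd22 (-0.59) and Cr2 (-0.56) lay below 0 and the other 5 genes above it. The arrays that define the sets are among those compared, so the difference between the sets is no separate result.

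Marker genes of other cells were read on the same arrays. Of 15 neutrophil genes all 15 had a positive log2 difference, and 12 had an unadjusted p below 0.05 from limma, against 11.5% of all probe sets. The genotypes did not overlap for 6, against 4.73%, and 1 was called higher, against 0.143%. The mean log2 value of the 15 genes lay between 7.92 and 9.13 in LysMCre and between 9.49 and 10.08 in LysMCre;Arntfl/fl. Of 15 epithelial genes 9 were positive and 6 negative, and their mean lay between 7.00 and 9.50 in LysMCre and between 7.79 and 8.70 in LysMCre;Arntfl/fl. The mean of 12 macrophage genes lay between 10.38 and 10.74 in LysMCre and between 10.16 and 10.59 in LysMCre;Arntfl/fl. Of these genes 5 were positive and 7 negative, with 0 called. An unadjusted p below 0.05 from limma was found for 7, against 11.5% of all probe sets, and 2 did not overlap, against 4.73%. No marker can be read as 0 on this scale. Over the 9 arrays and after removal of the genotype means, the T cell mean correlated at 0.366 with the neutrophil mean, 0.343 with the epithelial mean, 0.187 with the stromal mean, which shares Thy1 with it, 0.270 with the macrophage mean, 0.565 with the mean of 10 eosinophil and mast cell genes and 0.804 with the mean of 11 dendritic cell genes. The B and plasma cell mean correlated at 0.165 with the neutrophil, 0.206 with the epithelial, 0.140 with the macrophage, 0.499 with the stromal, 0.520 with the dendritic cell and 0.619 with the eosinophil and mast cell mean. The NK cell mean correlated at 0.358, 0.181, 0.339, 0.184, 0.811 and 0.625 with the same lists in that order. The eosinophil and mast cell mean was 5.68 ± 0.22 (SD, n = 5) in controls and 6.13 ± 0.38 (SD, n = 4) in LysMCre;Arntfl/fl arrays, and overlapped. The dendritic cell mean lay between 7.77 and 8.01 in LysMCre and between 7.36 and 7.79 in LysMCre;Arntfl/fl. Like the T and NK cell means, it was highest on LysMCre replicate 5 and lowest on LysMCre;Arntfl/fl replicate 2. The correlations of list means were not computed without those arrays. How far the cells of these marker lists contributed to the values of the lymphocyte genes was not tested.

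**Figure D5:**
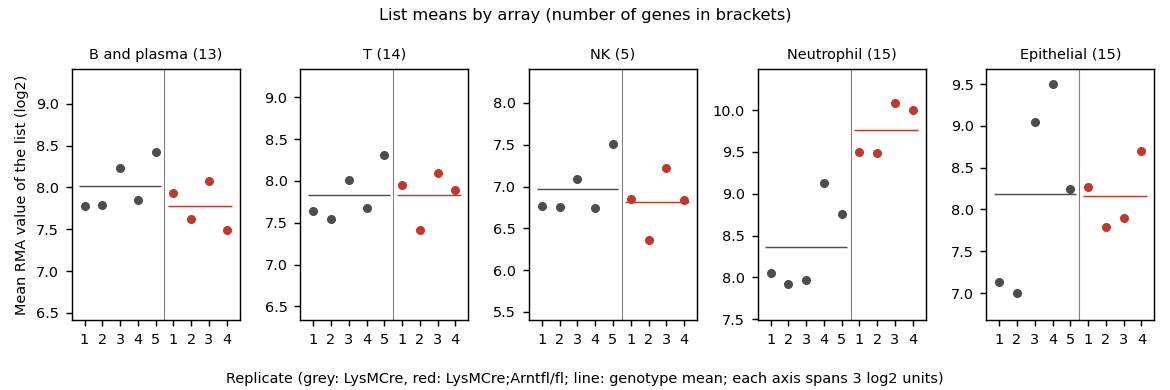
Mean log2 RMA value (y axis) of the B and plasma, T, NK, neutrophil and epithelial gene lists on each array (x axis, replicate number; grey LysMCre, red LysMCre;Arntfl/fl, line at the genotype mean). The 3 lymphocyte lists overlap between genotypes and peak on LysMCre replicate 5, whereas the neutrophil list is higher on all 4 LysMCre;Arntfl/fl arrays, from 9.49 to 10.08.

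Other genes of these lineages were read from lists. Of 22 further B and plasma cell genes 9 were positive and 13 negative with 0 called, 8 had an unadjusted p below 0.05, against 11.5% of all probe sets, and 3 did not overlap, against 4.73%. The mean of these genes correlated at 0.962 with that of the 13 members over the 9 arrays. The farthest from 0 were Eaf2, which is prominent in germinal centre B and plasma cells (log2 difference -0.72, adjusted p = 0.395), the costimulatory receptor gene Cd27 (0.67, adjusted p = 0.215), Ralgps2, an exchange factor gene rich in B cells (-0.63, adjusted p = 0.0598), and Irf4, a plasma cell factor that macrophages and dendritic cells also use (-0.61, adjusted p = 0.194). Ralgps2 read between 7.78 and 8.20 in LysMCre and between 7.10 and 7.55 in LysMCre;Arntfl/fl, without overlap. It was called in 3 of 20 alternatives, 1 of which used the looser threshold of an adjusted p below 0.1. The others without overlap were Irf4 and Sdc1, the plasma cell and epithelial surface marker CD138, named after its values were seen. By the brighter of its 2 probe sets, Sdc1 read between 9.30 and 9.60 in LysMCre and between 9.74 and 10.16 in LysMCre;Arntfl/fl. Its log2 difference of 0.46 (adjusted p = 0.0929 from limma) was opposite in sign to those of Tnfrsf17 and Mzb1. Of the same list, Tnfrsf13b (-0.61), Prdm1 (-0.38), Derl3 (-0.34), Xbp1 (-0.21) and Jchain (-0.19) were negative and overlapped. Cd27 (0.67) and Fcrl5 (0.08) were positive.

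Of 29 further T cell genes 13 were positive and 16 negative, 0 were called, 4 had an unadjusted p below 0.05, against 11.5% of all probe sets, and 1 did not overlap, against 4.73%, both shares near the background. The gene without overlap was Foxp3, the defining factor of regulatory T cells. It read 7.57, 7.04, 7.79, 7.17 and 7.74 in LysMCre and 8.48, 8.06, 8.61 and 8.41 in LysMCre;Arntfl/fl (log2 difference 0.93, standard error 0.17, adjusted p = 0.0562), while the CD3 chains of the same arrays overlapped. It was called in 5 of 20 alternatives, 1 of which used an adjusted p below 0.1. Over the alternatives its adjusted p ran from 0.0346 to 0.203. The next were the type 3 cytokine gene Il17a (-0.70, adjusted p = 0.156), the lymphotoxin subunit gene Ltb (0.65, adjusted p = 0.282) and the costimulatory receptor gene Icos (0.42, adjusted p = 0.531).

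Of 22 further NK and innate lymphoid cell genes 8 were positive and 14 negative with 0 called, 2 had an unadjusted p below 0.05 and 1 did not overlap, against the same 11.5% and 4.73% of all probe sets. Klrb1b, a lectin-like receptor gene and neighbour of Klrb1c in its family, read between 8.22 and 8.67 in LysMCre and between 7.30 and 8.19 in LysMCre;Arntfl/fl, without overlap (log2 difference -0.81, adjusted p = 0.0652). It was called in 5 of 20 alternatives, 1 of which used an adjusted p below 0.1. Klrk1, which encodes the activating receptor NKG2D, had -0.72 (adjusted p = 0.212 from limma). The IL-18 receptor chain gene Il18rap had 0.55 (adjusted p = 0.474) and the cytokine gene Il22 -0.50 (adjusted p = 0.564). Il22 averaged 4.15 in LysMCre and 3.65 in LysMCre;Arntfl/fl, below the array medians of 5.98 to 6.04.

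Genes of the factors that attract or feed lymphocytes were read as well. Of 21 measured, 6 were positive and 15 negative, and 0 were called. An unadjusted p below 0.05 from limma was found for 9, against 11.5% of all probe sets, and 2 did not overlap, against 4.73%. After removal of the genotype means, the mean of the 21 correlated at 0.919 with the T cell mean. It correlated at 0.867 with the NK cell mean and 0.686 with the B and plasma cell mean. Cxcl13, the attractant of B cells, read 9.27, 9.18, 9.19, 9.47 and 9.72 in LysMCre and 10.97, 12.39, 11.05 and 9.66 in LysMCre;Arntfl/fl. LysMCre;Arntfl/fl replicate 4 lay among the controls and the other 3 arrays above them (log2 difference 1.65, adjusted p = 0.119). The mean of the B and plasma cell members on those 3 arrays was 7.93, 7.62 and 8.07, within or below the range of the controls. A link between Cxcl13 and these genes was not tested. Cxcl9, an attractant of activated T cells, read between 10.41 and 11.21 in LysMCre and between 8.69 and 10.09 in LysMCre;Arntfl/fl, without overlap (log2 difference -1.28, adjusted p = 0.0649). It was called in 3 of 20 alternatives, 1 of which used an adjusted p below 0.1. Il6, a cytokine that supports plasma cells, and Tnfsf13b, which encodes BAFF, had -0.81 (adjusted p = 0.161, without overlap) and -0.67 (adjusted p = 0.210).

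Antigen receptor segments were read by probe sets whose sequences are near-identical to those of other segments, so their identity is uncertain. Of 19 immunoglobulin variable probe sets 3 were positive and 16 negative, 6 had an unadjusted p below 0.05, against 11.5% of all probe sets, and 0 were called, with log2 differences from -1.62 to 0.19. Of 9 probe sets of the constant genes Ighm and Ighg3, 2 were positive and 7 negative with 0 called. The farthest was 1 of the 2 probe sets of Ighg3, an IgG constant gene (log2 difference -2.06, adjusted p = 0.197 from limma), while the other had -0.47 (adjusted p = 0.895). The brightest of the 9, of Ighm, averaged 14.16 in LysMCre and 14.17 in LysMCre;Arntfl/fl, close to the highest value on any array, 14.27. Whether differences are compressed at such levels was not tested. Of 21 T cell receptor variable probe sets 10 were positive and 11 negative, and 2 had an unadjusted p below 0.05, against 11.5% of all probe sets. Some of the 6 probe sets named Trav12-2 held identical values, so the 21 are not all separate measurements. Limma called 1 of the 21 higher, against 0.143% of all probe sets. It was 1 of the 5 probe sets named Trav9d-3 (controls 5.84 ± 0.10, SD, n = 5, against 6.58 ± 0.27, SD, n = 4, log2 difference 0.73, adjusted p = 0.0410 from limma). Its control mean lay below the array medians of 5.98 to 6.04. The other 4 had log2 differences between 0.20 and 0.30 and were not called, unlike this probe set. Its call was lost in 7 of the 9 fits without 1 array, where the adjusted p reached 0.129 (without LysMCre;Arntfl/fl replicate 4).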

How the data were processed

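Per the labels and the study's methods, total RNA of sorted lamina propria macrophages from 9 mice was amplified and hybridized, 1 mouse per array. The authors processed the arrays with Expression Console under default settings and deposited RMA values, which are background corrected, quantile normalized and summarized as 1 log2 value per probe set. They analysed them with Partek Genomics Suite (6.6 in the submitters' processing notes) and SAM. SAM was not run here. Neither the annotation release nor a probe set filter is named by any source used here. Each array held 34365 values between 2.26 and 14.27, their medians ran from 5.98 to 6.04, and any pair of arrays correlated at 0.976 or more. Arrays have no read depth, so precision depends on how many there are. Replicates are separate mice.

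Genotypes were compared in R 4.3.3 by lmFit and eBayes of limma 3.58.1. All 34365 probe sets were kept, dim ones included, and their p-values adjusted together by the Benjamini-Hochberg method. The function was tested on simulated data. Symbols came from the platform annotation: 23521 probe sets had 1 symbol, 1820 several and 9024 none, and those with several named no gene. Members, companion lists and marker lists were chosen with earlier results of these data known. The text names all members, and of each companion list the called genes and up to 4 genes with the largest absolute log2 difference. Sdc1 and the genes given beside it were added after their values were seen. Variable segments that were not called are given by counts only. Itgae and Ccr9, which are not members, stand both among the further T cell genes and in the dendritic cell list. Ighm stands among the further B and plasma cell genes and among the constant segments. The correlations after removal of the genotype means, and those without 1 or 2 arrays, were chosen after the values were seen. Promoter windows came from RefSeq (GRCm38.p6). Alternatives tried for the fit were array weights, robust variances, a variance trend, the replicate number as a block, and an unpaired t-test in place of limma. For the calls they were an adjusted p below 0.1 and no fold threshold. For the values they were median centring, a further quantile normalization and the mean of all probe sets of a gene. The others were the brighter probe sets, only probe sets with 1 symbol, and leaving out each array.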

Additional observations from a re-analysis of the deposited data

Results flagged for a closer look

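In 64 groups (32 genes in each genotype), the gap of the extreme array to its neighbour was compared with Dixon's critical value, and 4 groups passed it. All 4 were values of LysMCre;Arntfl/fl replicate 2. Chance flags about 1 in 20 groups, and the genes are correlated, so these are not 4 separate events. That array was low for Cd6 (7.11 on the log2 scale, against 8.45 to 8.56 in the other 3), low for Thy1 (6.62, against 7.08 to 7.16), low for Gata3 (6.23, against 6.49 to 6.50) and high for Il7r (11.32, against 10.58 to 10.66). Without it the log2 differences were 0.61 for Cd6, -0.07 for Thy1, 0.26 for Gata3 and 0.02 for Il7r, and none of the 4 was called.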

How the results depend on the processing

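Across 21 alternatives limma or an unpaired t-test called 0 of the measured members. The smallest adjusted p of any member was 0.123 from limma (Tnfrsf17, without LysMCre replicate 1). Of 32 members 20 kept their sign in every alternative, and 37 of 669 values changed sign, none of them called. Leaving out 1 array gave medians of -0.402 to -0.0768 for the B and plasma cell genes, -0.0737 to 0.195 for the T cell genes and -0.292 to -0.00832 for the NK cell genes. Replicate numbers do not pair the samples (correlations of same-numbered arrays -0.120, -0.0715, -0.000463 and 0.166). With the replicate block, which leaves LysMCre replicate 5 without a partner, the medians were -0.156 for B and plasma, 0.195 for T and -0.0270 for NK cell genes, with 0 calls. The brighter probe sets held 29 of the 32 members. With the mean of all its probe sets, the log2 difference of Gata3 was 0.04 and moved by more than its residual SD. The deposited values hold no measure of signal over background, so dim members could not be told from undetected ones.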
